A study of Rattus norvegicus with 15 samples.

Results

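The interferon-gamma-induced GTPases described here are 6 rat genes, the guanylate-binding proteins Gbp1, Gbp2, Gbp4 and Gbp5 and the immunity-related GTPases Igtp and Irgm. They were taken by symbol from a deposited table of 22250 genes, each symbol stood on 1 line, and all 6 were among the 13457 genes that reached 1 FPKM (fragments per kilobase of transcript, scaled to the depth of the library) in at least 5 libraries. The study sequenced lung RNA of wild-type rats in 15 libraries, 5 in each of 3 groups. SJY rats received lipopolysaccharide (LPS) into the trachea and the herbal formula Sang Ju Yin by the intragastric route, ALI rats received LPS into the trachea alone, as a model of acute lung injury, and control rats were labelled normal controls. The labels give no strain, age, dose or time after LPS, and no group given only the instillation or only the formula is among the libraries. They do not say whether a library came from 1 animal or from a pool, and p-values therefore reflect the spread among libraries, part of which may be technical. The labelled tissue carried its own markers, with the summed FPKM of 5 alveolar type II cell markers at 17279 to 19762 in SJY libraries, 5854 to 20287 in ALI libraries and 15720 to 24131 in control libraries.

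Guanylate-binding proteins and immunity-related GTPases are large enzymes that are made in many cell types after interferon-gamma, and to a varying degree after type I interferons. Interferon-gamma acts through its receptor, JAK kinases and STAT transcription factors, which bind gamma-activated sites (GAS) and, directly or through IRF transcription factors, lead to transcription from interferon-stimulated response elements (ISRE). The proteins assemble on vacuoles and on the surface of bacteria inside the cell, and guanylate-binding proteins help the inflammatory caspases to sense LPS in the cytosol. In lung they are known from infection, where macrophages, epithelium and endothelium can all make them.

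The promoters of the 6 genes are shown because promoter elements are what interferons are known to act through. RefSeq windows of the GRCr8 build, from 250 bases before to 50 bases after each annotated start, were searched on both strands for 2 motifs, the ISRE core of GAAA, any 2 bases and GAAA again (TTTC on either side of 2 bases when read on the opposite strand), and the GAS letters TTCNNNGAA, which read the same on both strands. Each line gives the stretch around the matches, read 5′ to 3′ on the strand of the gene, with the matched letters in capitals.

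Gbp1: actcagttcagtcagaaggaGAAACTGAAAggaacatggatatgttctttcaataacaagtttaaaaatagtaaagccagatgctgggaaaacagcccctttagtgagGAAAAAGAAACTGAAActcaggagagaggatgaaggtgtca
Gbp2: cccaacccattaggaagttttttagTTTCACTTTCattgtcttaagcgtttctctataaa
Gbp4: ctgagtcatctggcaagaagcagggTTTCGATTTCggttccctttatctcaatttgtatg
Gbp5: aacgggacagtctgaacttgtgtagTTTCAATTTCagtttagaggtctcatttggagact
Igtp: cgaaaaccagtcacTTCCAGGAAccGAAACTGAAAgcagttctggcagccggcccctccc
Irgm: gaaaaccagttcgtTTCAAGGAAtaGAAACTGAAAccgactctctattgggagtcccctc

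These stretches lie at chr2:234072187-234072335 on the plus strand for Gbp1, chr2:234005671-234005730 on the plus strand for Gbp2, chr2:233978451-233978510 on the plus strand for Gbp4, chr2:233910918-233910977 on the plus strand for Gbp5, chr10:42874919-42874978 on the plus strand for Igtp and chr10:33742578-33742637 on the minus strand for Irgm. An ISRE match stood in at least 1 window of all 6 genes, against 4.12% of the 27457 genes with promoter windows of the same length. Counted by window it was 6 of 7, against 3.92% of 33469 windows. Gbp1 has 2 annotated starts. One of its windows held no match, and the other held 3, of which 2 overlap. Counted from the annotated start, the ISRE match covered bases −31 to −22 in Gbp2, −10 to −1 in Gbp4 and −56 to −47 in Gbp5. A GAS match stood in 2 of the 6 genes, Igtp and Irgm, against 9.39% of all genes, and in both it ended 2 bases before the ISRE match. Among related genes searched in the same way, Gbp7 and Irgm2 also held both motifs, Ifi47 held GAS matches only and Gbp6 held neither. In Irgm2 the GAS match likewise ended 2 bases before the ISRE match. A match is a run of letters and not a measured binding site. In the order of the RefSeq genes on chromosome 2, Gbp5, Gbp7, Gbp4, Gbp2 and Gbp1 are direct neighbours, while Igtp and Irgm stand apart from each other on chromosome 10.

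**Figure D1:**
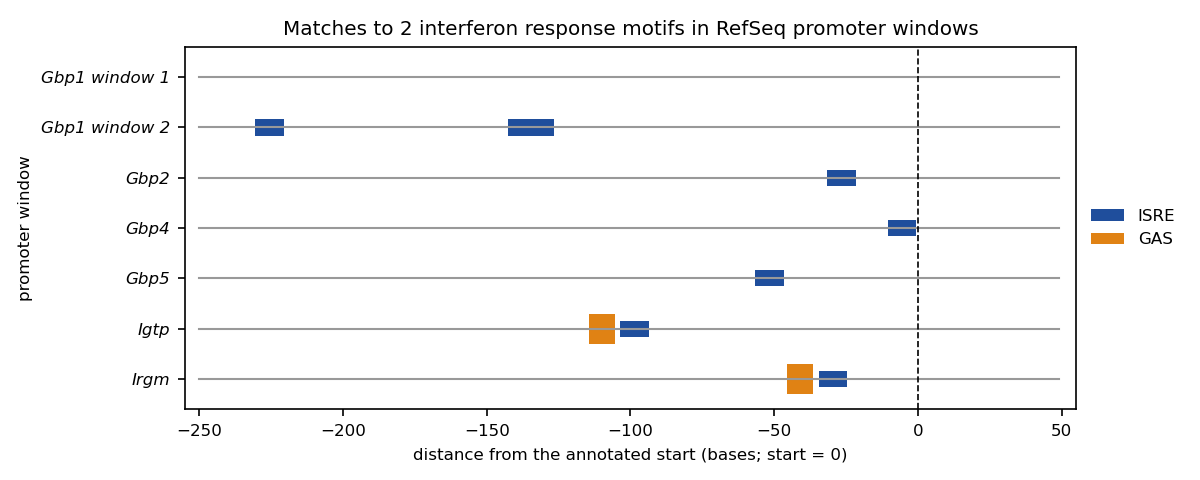
Positions of ISRE (blue) and GAS (orange) letter matches in the 7 RefSeq promoter windows of the 6 genes, against the distance from the annotated start in bases. All windows but 1 hold an ISRE match, and only Igtp and Irgm hold a GAS match, 2 bases away from the ISRE match.

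The 6 transcripts spanned a wide range of abundance. FPKM is scaled to transcript length, so levels can be set beside each other. Gbp2 was the most abundant in all 3 groups, averaging 69.5 ± 9.54 FPKM in SJY lungs, 53.9 ± 22.6 FPKM in ALI lungs and 40.8 ± 12.4 FPKM in control lungs (SD, n = 5 each). Gbp5, Igtp and Irgm came next and lay within each other's spread, with group means between 13.4 and 19.1 FPKM. Gbp4 averaged 6.67 ± 0.655 FPKM in SJY lungs, 4.43 ± 1.30 FPKM in ALI lungs and 3.43 ± 1.29 FPKM in control lungs. Gbp1 was the least abundant, at 3.73 ± 1.07 FPKM in SJY lungs, 1.29 ± 0.865 FPKM in ALI lungs and 2.71 ± 2.0 FPKM in control lungs. The FPKM values step in whole fragments, which gave 12071097 to 14009732 fragments per library and 9 to 3121 fragments behind each value of the 6 genes. Per-library values below are given in the order SJY 1, 3, 4, 5 and 6, ALI 1 to 5, and control 4 to 8, as the labels number them. In bulk lung RNA, fewer cells of a type and less RNA per cell cannot be told apart.

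**Figure D2:**
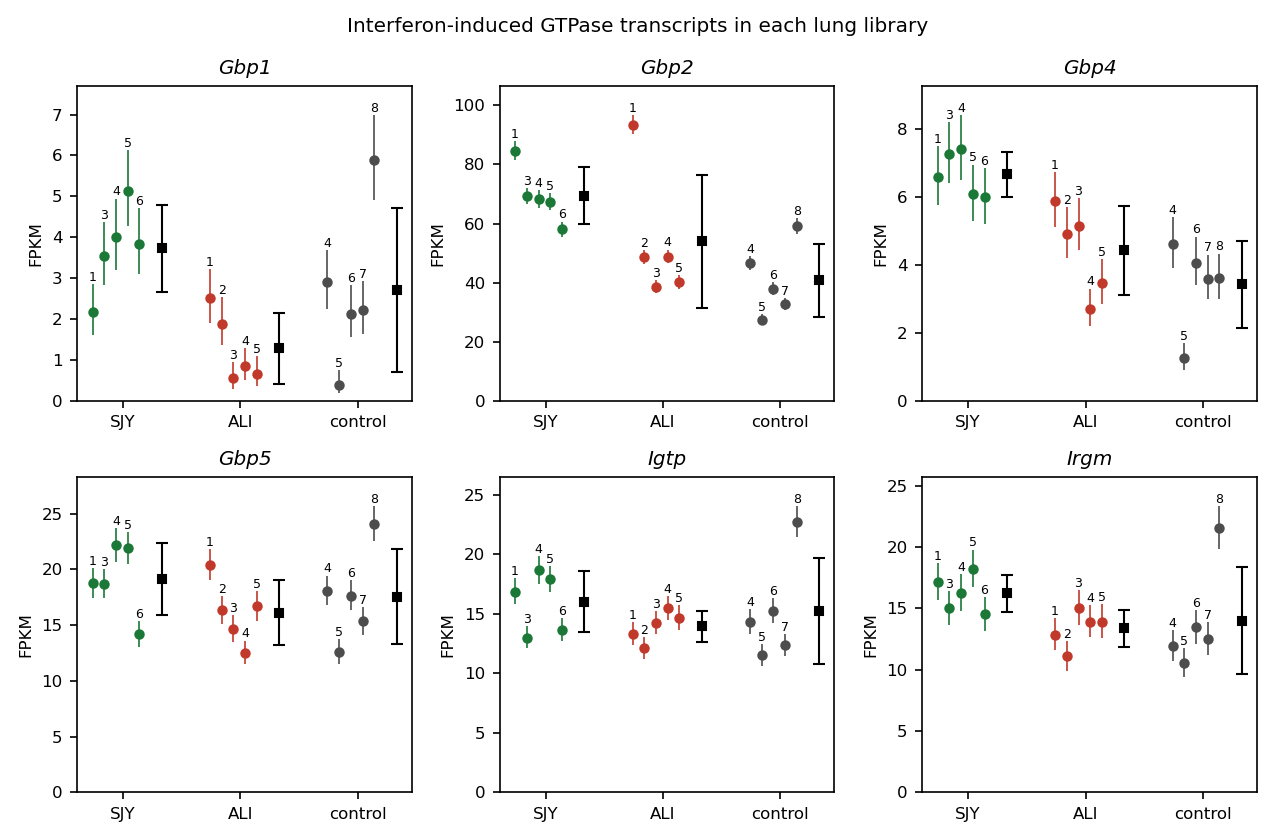
FPKM of the 6 transcripts in each library, with SJY in green, ALI in red and control in grey. Digits are the labels' replicate numbers, thin bars are 95% Poisson counting intervals, and black squares with caps are the group mean ± SD (n = 5). Gbp4 shows SJY libraries above every ALI and control library, and control 8 is the highest control library for 5 of the 6 genes.

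Gbp4 and Gbp2 were the 2 genes higher in SJY than in control lungs at a limma adjusted p under 0.05. Gbp4, which in human cells joins the coat of guanylate-binding proteins on bacteria, had 6.59, 7.26, 7.41, 6.09 and 5.99 FPKM in SJY libraries, 5.89, 4.91, 5.16, 2.72 and 3.46 FPKM in ALI libraries, and 4.62, 1.26, 4.07, 3.60 and 3.61 FPKM in control libraries. All 5 SJY libraries stood above all ALI and all control libraries, while ALI and control libraries overlapped. Fold changes are differences of mean log2(FPKM + 1) from limma, fitted over all genes and all 15 libraries, and genes whose Benjamini-Hochberg adjusted p was under 0.05 are named called. On this scale, which understates changes of low genes, Gbp4 was higher by 0.85 in SJY than in control lungs (SE 0.23, 95% interval 0.36 to 1.34, limma adjusted p = 0.0110). The exact permutation test over all splits of 5 against 5 libraries gave p = 0.00794, two-sided, the smallest value it can give. Control 5 was the lowest library at 1.26 FPKM, and without it the Gbp4 difference was 0.62 and remained called (limma adjusted p = 0.0194).

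SJY against ALI gave Gbp4 a difference of 0.53 (SE 0.23, interval 0.04 to 1.02), which was not called (limma p = 0.0348 unadjusted and 0.391 adjusted), although the 5 libraries of each group did not overlap (exact permutation p = 0.00794, again the smallest possible). ALI against control gave 0.32 (SE 0.23, interval −0.17 to 0.81, limma adjusted p = 0.326), and 0.0941 without control 5.

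Gbp2, which in mouse is recruited to pathogen vacuoles and bacteria, had 84.6, 69.3, 68.2, 67.4 and 58.0 FPKM in SJY libraries, 93.5, 48.6, 38.7, 48.9 and 40.1 FPKM in ALI libraries, and 46.7, 27.5, 38.0, 32.8 and 59.0 FPKM in control libraries. Of the SJY libraries, 4 of 5 stood above every control library, and only SJY 6 lay below control 8. The highest value of all was that of ALI 1, and the other 4 ALI libraries lay below every SJY library. Gbp2 was higher by 0.79 in SJY than in control lungs (SE 0.23, interval 0.31 to 1.28, limma adjusted p = 0.0157; exact permutation p = 0.0159). The ratio of mean FPKM was 1.70, and that of Gbp4 was 1.94. The call of Gbp2 was kept without any 1 library, with differences from 0.67 to 0.94. It was closest to the threshold without control 5 (limma adjusted p = 0.0449).

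ALI against control gave Gbp2 a difference of 0.37 (SE 0.23, interval −0.12 to 0.85, limma adjusted p = 0.261), and SJY against ALI gave 0.43 (SE 0.23, interval −0.06 to 0.91, limma adjusted p = 0.487). Both values rest in part on ALI 1. Without that library the ALI mean was 44.0 ± 5.42 FPKM (SD, n = 4), the difference from control was 0.15 and that of SJY from ALI was 0.64 (limma adjusted p = 0.0819). Mitochondrial genes also made up 37.7% of the summed FPKM of ALI 1, against 8.31% to 14.1% in the other ALI libraries, and the part of this in its Gbp2 value was not tested. The share also moved with the groups of the called comparison, at 10.4% to 17.1% in SJY libraries and 5.19% to 9.62% in control libraries, with no overlap, and its part in the rise of Gbp2 and Gbp4 was not tested.

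Gbp1, whose human namesake binds LPS on bacteria and starts the coat that other guanylate-binding proteins join, had 2.16, 3.53, 4.0, 5.13 and 3.84 FPKM in SJY libraries, 2.51, 1.89, 0.553, 0.843 and 0.651 FPKM in ALI libraries, and 2.91, 0.398, 2.13, 2.22 and 5.89 FPKM in control libraries. ALI 3, 4 and 5 were below 1 FPKM, with 13, 21 and 14 fragments. Of the SJY libraries, 4 of 5 were above every ALI library, and SJY 1 lay between ALI 2 and ALI 1. Control libraries covered both other groups. At these counts the 95% Poisson interval of ALI 3, the lowest ALI library, ran from 0.294 to 0.946 FPKM. That of SJY 5, the highest SJY library, ran from 4.27 to 6.12 FPKM, so the gap between these extremes exceeds counting error. The interval of SJY 1, 1.60 to 2.85 FPKM, overlapped those of ALI 1 (1.91 to 3.23 FPKM) and ALI 2 (1.37 to 2.53 FPKM). Intervals of this kind cover counting error only.

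Among the 6 genes, Gbp1 had the largest estimate between SJY and ALI, a difference of 1.095 (SE 0.35, interval 0.36 to 1.83). It was not called (limma p = 0.00616 unadjusted and 0.262 adjusted), while the exact permutation test of this gene alone gave p = 0.0159. ALI against control gave −0.60 (SE 0.35, interval −1.33 to 0.14, limma adjusted p = 0.227), and SJY against control gave 0.50 (SE 0.35, interval −0.24 to 1.23, limma adjusted p = 0.287). Both values move with single control libraries. ALI against control was −0.90 without control 5 and −0.33 without control 8, and SJY against control was 0.19 without control 5 and 0.77 without control 8, none of them called. Because Gbp1 is low, its estimate depends on the scale. In limma's voom fit of the recovered fragment counts the difference of SJY from ALI was 1.71 on the log2 scale, also not called (adjusted p = 0.331). Array weights, which give more weight to libraries that fit the model better, called Gbp1 in SJY against ALI (1.31, limma adjusted p = 0.0289), in a fit that called 2.21% of all tested genes as higher.

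Gbp5, which in mouse macrophages promotes assembly of the NLRP3 inflammasome, had 18.8, 18.7, 22.1, 21.9 and 14.2 FPKM in SJY libraries, 20.4, 16.3, 14.7, 12.5 and 16.7 FPKM in ALI libraries, and 18.1, 12.6, 17.7, 15.3 and 24.1 FPKM in control libraries. The 3 groups overlapped throughout, and the highest single value was that of control 8. The limma difference was −0.10 for ALI against control (SE 0.17, interval −0.46 to 0.26), 0.24 for SJY against ALI (SE 0.17, interval −0.13 to 0.60) and 0.13 for SJY against control (SE 0.17, interval −0.23 to 0.49), with adjusted p of 0.690, 0.632 and 0.575. None was called, and the intervals still allow changes of up to 0.60 in size.

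Igtp, the rat counterpart of mouse Irgm3, is a regulatory immunity-related GTPase of internal membranes. It had 16.9, 13.01, 18.7, 17.9 and 13.6 FPKM in SJY libraries, 13.3, 12.1, 14.2, 15.5 and 14.6 FPKM in ALI libraries, and 14.3, 11.5, 15.2, 12.3 and 22.7 FPKM in control libraries. SJY 3 and 6 lay among the ALI libraries, and control 8 was above all 14 others. The differences were −0.08 for ALI against control (SE 0.16, interval −0.43 to 0.26), 0.18 for SJY against ALI (SE 0.16, interval −0.17 to 0.52) and 0.09 for SJY against control (SE 0.16, interval −0.25 to 0.44), with limma adjusted p of 0.734, 0.717 and 0.690.

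Irgm, whose mouse counterpart Irgm1 is needed for resistance to intracellular bacteria and for turnover of damaged mitochondria, had 17.1, 15.02, 16.3, 18.2 and 14.5 FPKM in SJY libraries, 12.9, 11.1, 15.05, 13.9 and 13.9 FPKM in ALI libraries, and 11.9, 10.5, 13.5, 12.5 and 21.5 FPKM in control libraries. Apart from control 8, every control library lay below every SJY library. ALI 3 was the only ALI library within the range of the SJY libraries. SJY against ALI gave a difference of 0.26 (SE 0.16, interval −0.07 to 0.60, limma adjusted p = 0.534; exact permutation p = 0.0238 for this gene alone), and ALI against control gave −0.03 (SE 0.16, interval −0.36 to 0.31, limma adjusted p = 0.919). SJY against control gave 0.24 (SE 0.16, interval −0.09 to 0.57, limma adjusted p = 0.258). Without control 8 this difference was 0.40 and was called (limma adjusted p = 0.0277), in a fit that called 12.1% of all tested genes as higher.

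**Figure D3:**
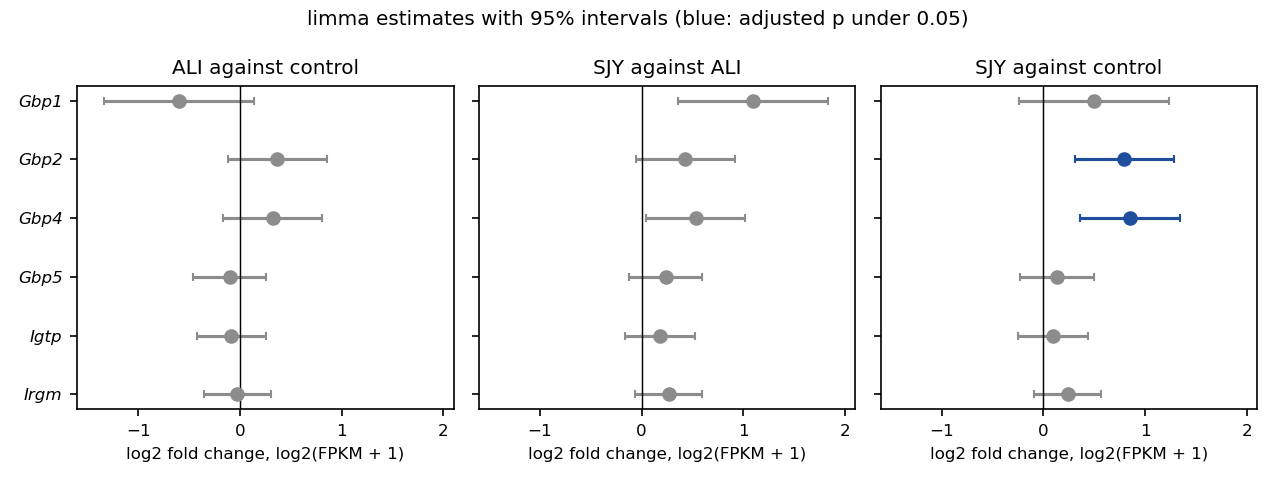
limma differences of mean log2(FPKM + 1) with 95% intervals for the 6 genes in each comparison, with called genes in blue and the others in grey. Only Gbp2 and Gbp4 in SJY against control are called, and all 6 estimates of SJY against ALI are above 0.

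Taken by comparison, 0 of the 6 genes were called by limma in ALI against control, where 17.6% of all tested genes were called. None of them had an unadjusted p under 0.05, against 35.0% of all tested genes, and none had groups without overlap, against 12.9%. The median difference of the 6 genes was −0.06 there, against −0.12 over all tested genes. Voom on the recovered counts also called 0 of the 6.

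SJY against ALI likewise gave 0 called genes of 6, in a comparison that called 0.00743% of all genes tested. At an unadjusted limma p under 0.05 there were 2 of the 6, Gbp1 and Gbp4, both higher in SJY, against 11.8% of all tested genes in either direction and 6.62% higher. All 6 estimates were above 0, as were 54.9% of all tested genes, and 1 of the 6 genes, Gbp4, was higher with no overlap, against 2.24% of all tested genes. The 6 genes had a median difference of 0.35, beside 0.03 over all genes tested. Without ALI 1 the comparison called 0.884% of all tested genes as higher, and still 0 of the 6.

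In SJY against control, 2 of the 6 genes, Gbp2 and Gbp4, were called, both higher, where 32.6% of all tested genes were called and 14.6% were called higher. Gbp4 alone had SJY libraries entirely above control libraries, as did 11.8% of all tested genes. All 6 estimates were above 0, and the median over the 6 genes was 0.37, against −0.11 over all tested genes. The comparisons share libraries with each other, so their values are not independent.

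No scaling between libraries is stated for the deposited values, and a median-of-ratios scaling put the median of all genes at 0.000102 in ALI against control, where it was −0.12, and at −0.00432 in SJY against control, where it was −0.11. Under it the small differences of Gbp5, Igtp and Irgm in ALI against control changed sign, to 0.04, 0.05 and 0.11, and both calls in SJY against control were kept.

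The libraries themselves varied together. Control 5 was the lowest control library for all 6 genes and control 8 the highest for 5 of them, while ALI 1 was the highest ALI library for 4 genes and SJY 6 the lowest SJY library for 4. Over the 15 libraries all 15 pairs of the 6 genes had a positive Pearson correlation of log2(FPKM + 1), from 0.26 for Gbp4 with Igtp to 0.89 for Igtp with Irgm. For Igtp with Irgm, Spearman's rho was 0.775, and over the 27 relations computed the adjusted permutation p was 0.00108 for r and 0.0261 for rho. The value was 0.77 without the 2 libraries farthest from the median of Irgm, and 0.90 for deviations from the group means. Of the 15 pairs, 6 had an adjusted permutation p under 0.05 for r and 3 for rho. The permutations were not kept within groups, so differences between groups enter these p-values. For deviations from the group means r ran from 0.19 for Gbp4 with Igtp to 0.90 for Igtp with Irgm, and for Gbp2 with Gbp4 it was 0.54 instead of 0.76. Without the 2 libraries farthest from the median of one gene r ran from 0.21 to 0.77.

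Irf1, a transcription factor gene induced by interferon-gamma, had r of 0.05 to 0.35 with the 6 genes, and Ifng, the gene of interferon-gamma, had r of −0.24 to 0.38. None of these 12 relations had an adjusted permutation p under 0.05, and the lowest was 0.289 for r and 0.213 for rho.

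**Figure D4:**
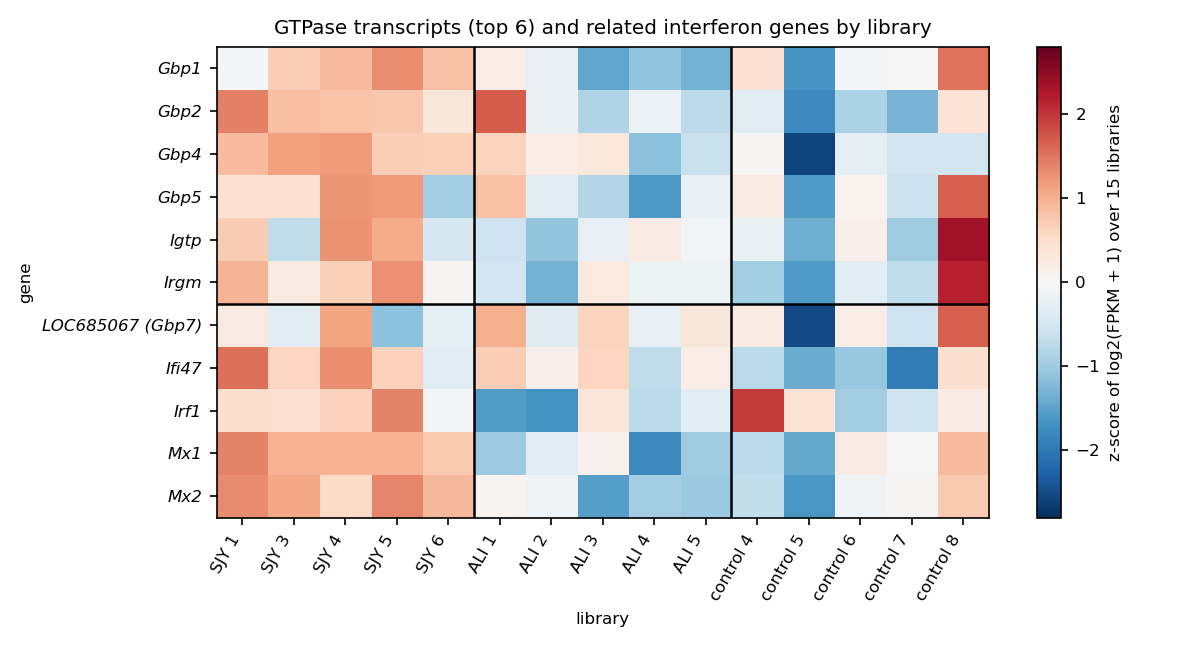
z-scores of log2(FPKM + 1) over the 15 libraries for the 6 genes (top) and 5 related interferon genes, with SJY, ALI and control libraries from left to right. Control 5 is blue and control 8 red for most genes, and Mx1 and Mx2 are red in all SJY libraries.

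The transcripts whose levels were most like the mean of the 6 genes over the 15 libraries were Mx2 (r = 0.81), Cmpk2 (0.81), Cxcl10 (0.79), Sdcbp (0.78), Usp18 (0.78) and Rtp4 (0.78). All but Sdcbp are known interferon-stimulated genes. For deviations from group means, which leave out differences between groups, they included Nudcd1 (r = 0.89), LOC685067 (0.83), Cct8 (0.82), Samd9 (0.80) and Rap2c (0.78). LOC685067 is a name that RefSeq lists under Gbp7, the gene between Gbp5 and Gbp4 on chromosome 2. It averaged 23.5 ± 3.72 FPKM in SJY lungs, 24.99 ± 2.66 FPKM in ALI lungs and 23.4 ± 6.47 FPKM in control lungs. Close copies among guanylate-binding protein genes can share reads, so the levels of single genes of this cluster are uncertain to that extent.

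The interferon-gamma transcript was near the limit of detection. Ifng, the gene of the ligand, averaged 0.795 ± 0.612 FPKM in SJY lungs, 0.729 ± 0.712 FPKM in ALI lungs and 1.39 ± 0.824 FPKM in control lungs, from 1 to 11, 0 to 10 and 2 to 14 fragments per library. The gene was listed at 0 in 2 ALI libraries, and no comparison called it. Irf1 averaged 66.2 ± 5.79 FPKM in SJY lungs, 53.0 ± 7.61 FPKM in ALI lungs and 62.9 ± 12.4 FPKM in control lungs, and its difference of SJY from ALI was 0.32 (SE 0.13, limma adjusted p = 0.369). The list counts here and below stand beside these shares over all 13457 tested genes. In ALI against control 17.6% were called, 1079 genes of them higher. In SJY against control 32.6% were called, and 14.6% were called higher. In SJY against ALI 11.8% had an unadjusted limma p under 0.05, and 6.62% were higher at it. Of 18 tested genes of the ligand, receptor, JAK-STAT and IRF list, 1 was called in ALI against control, the receptor chain gene Ifngr2, which was higher by 1.07. In SJY against ALI none of the 18 was called, and 1 higher and 2 lower had an unadjusted limma p under 0.05. The 2 most abundant, Ifngr1 and the feedback inhibitor gene Socs3, had differences of 0.19 and −0.11. In SJY against control 4 were called higher, among them Ifngr2 (1.26), the phosphatase gene Ptpn2 (0.62) and Ifngr1 (0.54), and 2 lower, the MHC class II activator gene Ciita (−0.76) and the SUMO ligase gene Pias1 (−0.61).

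Among 13 other genes of the interferon-induced GTPase families, taken by family and not by shown induction, 8 were tested. Irgm2 and Tgtp1 were not matched to a symbol of the table. In ALI against control 0 were called higher and 1 lower, Irgq, a quasi-GTPase relative of the family, which differed by −0.996. None was called in SJY against ALI, where the 2 most abundant, Ifi47 and LOC685067, differed by 0.23 and −0.09. An unadjusted limma p under 0.05 was found for 2, both higher, Mx2 (1.21, adjusted p = 0.151) and Mx1 (1.01, adjusted p = 0.151), which had all SJY libraries above all ALI libraries. In SJY against control 3 were called higher and 1 lower. Those higher were Mx2 (0.94) and Mx1 (0.68), dynamin-like antiviral GTPases, and Ifi47 (0.69), an immunity-related GTPase. Irgq was lower by −1.46. Ifi47 averaged 48.1 ± 9.40 FPKM in SJY lungs, 40.5 ± 6.08 FPKM in ALI lungs and 29.9 ± 8.25 FPKM in control lungs. Gbp6, on another chromosome, averaged 4.91 ± 2.85 FPKM in SJY lungs, 5.37 ± 3.45 FPKM in ALI lungs and 8.10 ± 2.02 FPKM in control lungs, with no call.

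Other targets of interferon-gamma included 21 tested genes. In ALI against control 7 of 21 were called higher, with the chemokine gene Cxcl9 (1.87), the complement inhibitor gene Serping1 (1.51) and the Fc receptor gene Fcgr1a (1.25) in front, and the transcription factor gene Batf2 was lower (−0.69). In SJY against ALI 0 were called, and the most abundant, B2m and Cd74, differed by 0.37 and −0.44. At an unadjusted limma p under 0.05 there were 5 higher and 0 lower. One of them, the chemokine gene Cxcl10, differed by 1.15 (adjusted p = 0.214) with no overlap and was singled out after its values were seen. In SJY against control 13 of 21 were called higher and 0 lower, led by Cxcl9 (2.51), Fcgr1a (1.74) and Serping1 (1.58). The median difference of this list was 0.87 in SJY against control, against 0.37 for the 6 GTPase genes.

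The type I interferon-stimulated list had a median difference of 0.71 in SJY against ALI, the largest of the 6 lists in that comparison. None of its 20 genes was called there, 14 had an unadjusted limma p under 0.05, all higher in SJY, and its most abundant genes Ifi27 and Bst2 differed by 0.88 and 0.87. In ALI against control 2 were called higher, the antiviral genes Ifit1 (2.46) and Oasl (1.75). In SJY against control 14 were called higher, led by Ifit1 (3.39), Ifit3 (2.40) and Oasl (2.39), and 1 lower, the RNA sensor gene Ddx58 (−0.64). Mx1, which belongs to the GTPase list, had 20.99 ± 2.06 FPKM in SJY lungs, 10.2 ± 3.14 FPKM in ALI lungs and 13.3 ± 4.78 FPKM in control lungs.

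Inflammasome genes, whose products act together with guanylate-binding proteins, were called higher for 8 of 15 in SJY against control and 7 of 15 in ALI against control. In either comparison 0 were called lower. Il1b was higher by 2.69 in SJY and by 2.27 in ALI lungs than in control lungs, and Mefv (1.48) and Nlrp3 (1.32) followed in SJY, Ninj1 (0.99) and Nlrc4 (0.97) in ALI. In SJY against ALI 0 were called, and Txnip and Il1b, the most abundant, differed by 0.19 and 0.42. At an unadjusted limma p under 0.05 there were 3 higher and 0 lower.

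**Figure D5:**
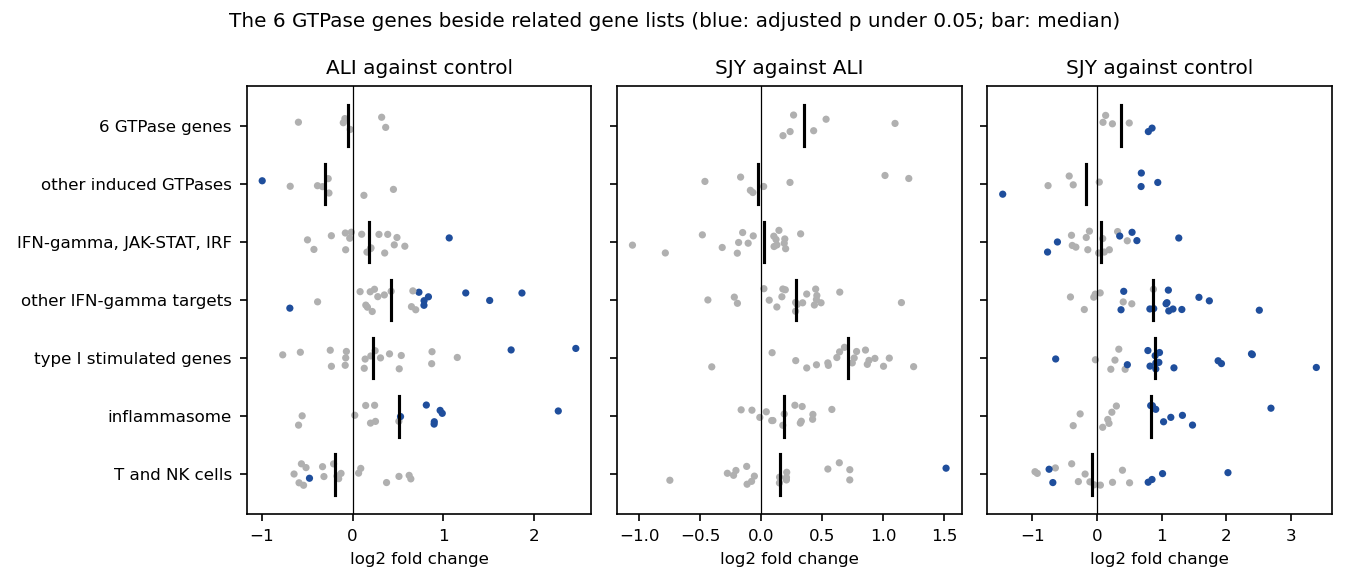
limma log2 differences of single genes in the 6 GTPase genes and 6 related gene lists, with called genes in blue, others in grey and a black bar at each median. The 6 GTPase genes have medians of −0.06, 0.35 and 0.37 in the 3 comparisons, and the type I interferon-stimulated list has the highest median of SJY against ALI, 0.71.

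Of the genes of T and NK cells, the cells that make most interferon-gamma, 18 were tested. Gzma, a protease gene of cytotoxic granules, was the 1 gene of all 13457 called in SJY against ALI (1.51, SE 0.22, limma adjusted p = 0.0437), at 70.4 ± 16.9 FPKM in SJY lungs, 24.1 ± 6.71 FPKM in ALI lungs and 16.7 ± 5.01 FPKM in control lungs. The call was lost in 16 of 25 alternatives, among them median-of-ratios scaling, with differences of 1.41 to 1.69 and limma adjusted p of 0.00962 to 0.216 over all 25. SJY against control called 4 of the 18 higher, led by Gzma (2.02), Cd8a (1.01) and Il18rap (0.85), and 2 lower, Il18r1 (−0.74) and Il12rb2 (−0.68). Over all tested genes 32.6% were called there, and 14.6% were called higher. ALI against control called 1, Il12rb2, which was lower (−0.47). The summed FPKM of 9 T and NK cell markers was 118 to 231 in SJY libraries, 80.2 to 138 in ALI libraries and 87.4 to 126 in control libraries, and none of the 9 was at 0 throughout a group. Gzma is 1 of the 9, and alone it had 47.8 to 91.0 FPKM in SJY libraries, 18.7 to 35.5 FPKM in ALI libraries and 11.6 to 23.6 FPKM in control libraries. Of the 8 markers that were tested, 1, again Gzma, was called higher in SJY against ALI, 3 in SJY against control and 0 in ALI against control. At an unadjusted limma p under 0.05, 4 of the 8 were higher in SJY against ALI and 0 lower, against 6.62% of all tested genes higher.

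Marker transcripts of other cells also differed between groups. All 6 neutrophil markers were called higher in SJY and in ALI lungs against control lungs, and their summed FPKM was 6883 to 11824 in SJY libraries, 1262 to 15821 in ALI libraries and 43.4 to 85.1 in control libraries. Of 5 macrophage markers, 4 were called higher in SJY and 3 in ALI lungs against control lungs, with sums of 305 to 451 FPKM in SJY libraries, 293 to 462 FPKM in ALI libraries and 162 to 226 FPKM in control libraries, and Marco was at 0 in all control libraries. Of 3 tested endothelial markers, 1 was called lower in SJY and 1 in ALI lungs against control lungs. The 4 endothelial markers in the table summed to 199 to 263 FPKM in SJY libraries, 99.3 to 313 FPKM in ALI libraries and 250 to 355 FPKM in control libraries, with Cldn5 at 0 in every library. Of 4 alveolar type I cell markers, 2 were called lower in SJY and 4 in ALI lungs against control lungs, with sums of 1150 to 1876 FPKM in SJY libraries, 457 to 1376 FPKM in ALI libraries and 2100 to 2961 FPKM in control libraries. Of 3 club cell markers, 1 was called lower in SJY and 2 in ALI lungs against control lungs, with sums of 7850 to 13488 FPKM in SJY libraries, 5367 to 8552 FPKM in ALI libraries and 10940 to 17121 FPKM in control libraries. Of 3 blood markers, 2 were called higher in SJY and 0 in ALI lungs against control lungs, where 2 had an unadjusted limma p under 0.05, with sums of 1553 to 4852 FPKM in SJY libraries, 765 to 2692 FPKM in ALI libraries and 155 to 2346 FPKM in control libraries. Of 4 tested B cell markers none was called or had an unadjusted limma p under 0.05 in any comparison, and of 5 alveolar type II cell markers 1 was called lower in SJY and 1 in ALI lungs against control lungs. In SJY against ALI no marker of these other cells was called. At an unadjusted limma p under 0.05, 5 of 6 neutrophil markers were higher in SJY, with a median difference of 1.07 over the 6. So was 1 marker each of macrophages, alveolar type I cells, alveolar type II cells and club cells, and 0 of endothelium and blood. None was lower at it, and 6.62% of all tested genes were higher. The part of any of these cell types in the levels of the 6 GTPase genes was not tested.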

How the data were processed

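Rat lung RNA was measured in 15 libraries, 5 per group, grouped by their labels. Per the labels' protocols, RNA came from a TRIzol extraction and went into NEBNext Ultra libraries. Cutadapt, HISAT2 and StringTie, with the build Rnor_6.0, are listed in the submitters' processing notes. Versions and strand setting are not given in the sources used here. The deposited values are FPKM, 1 column per library, per the file headers, with no stated scaling between libraries. The members and gene lists were chosen with earlier results of these data known.

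FPKM was turned into log2(FPKM + 1), and genes with at least 1 FPKM in 5 libraries were kept (13457 of 22250). limma 3.58.1 in R 4.3.3 (lmFit, eBayes with trend and robust settings) fitted the 3 groups together, two-sided, with Benjamini-Hochberg adjustment over all tested genes, and was tested on simulated data. Exact permutation tests used scipy 1.17.1. Correlation p-values come from permutation over all 15 libraries, not within groups. FPKM values were whole multiples of 1 fragment, within 0.02 fragments, for 100.0% of tested genes, which gave fragment counts and totals of 12071097 to 14009732 per library, and limma's voom on these counts was added after seeing the data.

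All 6 members are named. Of each list, up to 3 called genes per direction with the largest change are named, or else the 2 most abundant. Ifng and Irf1 are always named, as are the genes most alike, of which 6 were taken by each measure. A gene that these rules also take is not reported here. Ifngr1, Mx1, Gbp6, LOC685067 and Ifi47 are also given outside this rule. Alternatives were scaling, model settings, pseudocount, filters, array weights, a replicate block and leaving out each library. Promoters came from RefSeq (GRCr8). No protein sequences were used here.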

Additional observations from a re-analysis of the deposited data

Results flagged for a closer look

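Gbp2 in ALI replicate 1, at 93.5 FPKM, stood apart from the other 4 ALI libraries (38.7 to 48.9 FPKM), with a gap to the nearest of 0.814 of the group's whole range. Irgm in control replicate 8, at 21.5 FPKM, stood apart from the other 4 control libraries (10.5 to 13.5 FPKM), with a gap of 0.736 of the range. Dixon's 95% critical value for 5 libraries is 0.71. These were 2 of 18 pairs of a gene and a group checked, and chance alone puts about 1 in 20 groups past that value.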

How the results depend on the processing

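Of 444 single-gene values under alternatives, 428 kept their direction and their side of the threshold, 12 reversed, 2 gained a call and 2 lost one, and the causes were not tested. Many of the 444 could not change direction, because their setting leaves the estimate itself unchanged. These settings are a left-out library of the third group, the filters, the trend and robust settings, and a fit of only the 2 groups. ALI against control called 2366 genes, against 1332 with only the 2 groups fitted, 3959 with array weights and 1556 to 2897 without 1 library. SJY against ALI called 1 gene, and 0 with median-of-ratios scaling, without trend and robust settings, with a pseudocount of 0.1, with no filter, with only the 2 groups, or with voom on median-of-ratios library sizes. It called 478 with array weights and 0 to 181 without 1 library, the 181 without ALI 1. SJY against control called 4390, against 7654 with array weights and 3359 to 5956 without 1 library. Of the 6 genes, array weights called 1 in SJY against ALI, Gbp1 (1.31, limma adjusted p = 0.0289, range over all alternatives 0.0289 to 0.461), where 2.21% of all tested genes were called higher, and leaving out 1 library called 0. In SJY against control a filter at a mean of 5 FPKM left 1 call of 6, since Gbp4 and Gbp1 were then not tested, and leaving out 1 library gave 2 to 3, the 3 without control 8. In ALI against control, Gbp5, Igtp and Irgm reversed to 0.0376, 0.0527 and 0.11 with median-of-ratios scaling and to 0.0125, 0.0436 and 0.10 with voom on median-of-ratios library sizes, and without 1 library they ran from −0.21 to 0.0141, −0.17 to 0.0621 and −0.11 to 0.13. Groups share replicate numbers, but only 3 of 9 same-numbered pairs deviated together (correlation over 0.1, all pairs −0.39 to 0.30), so pairing is not shown. With a replicate block 313 genes were called in ALI against control and 1142 in SJY against control, and 0 of the 6 in the second, with Gbp2 at 0.76 (limma adjusted p = 0.0563) and Gbp4 at 0.81 (0.129). Under the block Igtp and Irgm in ALI against control were 0.13 and 0.22. Depth limits Gbp1, with 9 to 128 fragments per library, and Ifng, with 0 to 14.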
